A study of Saccharomyces cerevisiae with 6 samples.

Results

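The sulfate assimilation and methionine genes described here are 10 yeast genes chosen by name out of 6256 genes on the arrays: the sulfate permease genes SUL1 and SUL2, the enzyme genes MET3, MET14, MET16, MET10, MET2, MET17 and MET6, and the regulator gene MET28. MET17 is also known as MET25 and MET15, and the array files list it as YLR303W. All 10 had a value on all 6 arrays, 8 of them from 2 spots and MET3 and MET28 from 1 spot. RNA was measured on 2-color Agilent oligonucleotide arrays, each of which held 1 myo1Δ culture and 1 wild type culture of Saccharomyces cerevisiae. MYO1 encodes the heavy chain of the type II myosin of the cytokinetic ring.

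Arrays 1 to 3 compared YJR13 (myo1Δ) with YJR12 (wild type), and arrays 4 to 6 compared YJR6 (myo1Δ) with MGD353-46D (wild type). YJR6 was made from MGD353-46D by replacing MYO1 with a HIS5+ marker. YJR13 and YJR12 are haploid progeny of YJR6 crossed to BY4741, so each mutant and each wild type is 1 strain and not a set of independent transformants. All 4 strains carry trp1, ura3, leu2-3 and his3delta1 mutations and are listed as cyhR and ADE+. YJR13 is MAT a and its partner YJR12 is MAT α, and YJR12 is listed as ARG+ where YJR13 is listed as ARG. YJR6 and MGD353-46D are both MAT α. The cells grew at 26°C overnight, either in complete synthetic medium (CSM) or in its histidine dropout version. Only the mutants carry HIS5+. The paper's wording reads as dropout medium for the mutants and CSM for the wild types. Read this way, medium and genotype cannot be told apart on these arrays.

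One further point of genotype touches a gene of the list. BY4741, a parent of YJR13 and YJR12, is listed with met15delta0, a deletion of the gene named MET17 here. The listed genotypes of YJR13 and YJR12 do not mention this allele, and the sources used here do not say whether either strain inherited it. YJR6 and MGD353-46D did not come from that cross.

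Yeast takes up sulfate through the Sul1 and Sul2 permeases and activates it with ATP, first to adenosine phosphosulfate by Met3 and then to phosphoadenosine phosphosulfate (PAPS) by Met14. Met16 reduces PAPS to sulfite, and the sulfite reductase formed by Met10 and Met5 reduces sulfite to sulfide. Met17 joins sulfide to O-acetylhomoserine, the product of Met2, to give homocysteine, which Met6 methylates to methionine. The activator Met4 switches these genes on together when sulfur amino acids are short, with Cbf1, Met28, Met31 and Met32 as its DNA-binding partners, and the F-box protein Met30 restrains Met4.

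Of the 10 genes, MET17 was the one that fell in myo1Δ cells, and it fell by a large amount. Its mRNA was 5.41-fold lower in myo1Δ than in wild type cells over the 6 arrays. Among the 10 genes, none of those that act before it in the pathway passed the test as lower. MET16 rose slightly, by 1.23-fold, and the other 8 genes did not pass the test. At an adjusted p of 0.05 in limma (Benjamini-Hochberg over all genes) the list therefore held 1 lower and 1 higher gene of 10, where 12.9% of all 6256 genes were lower and 14.2% were higher. At an adjusted p of 0.01 it held 1 lower and 0 higher genes, against 3.96% and 3.47% of all genes. The count of higher genes was 3 of 10 at an unadjusted p of 0.05 (MET3, MET16 and MET28), where 21.6% of all genes were higher. The median log2 ratio of the 10 genes was 0.23 (SD 0.23 over 6 arrays), and the median of all genes was 7.9e-04. With array 2 left out, the median of the 10 genes was 0.0045. Without MET17 the other 9 genes had a median of 0.23. At an unadjusted p of 0.05 in limma 0 of these 9 were lower, where 19.1% of all genes were lower. All ratios below are log2 ratios of myo1Δ over wild type, given in the order of the arrays.

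**Figure D1:**
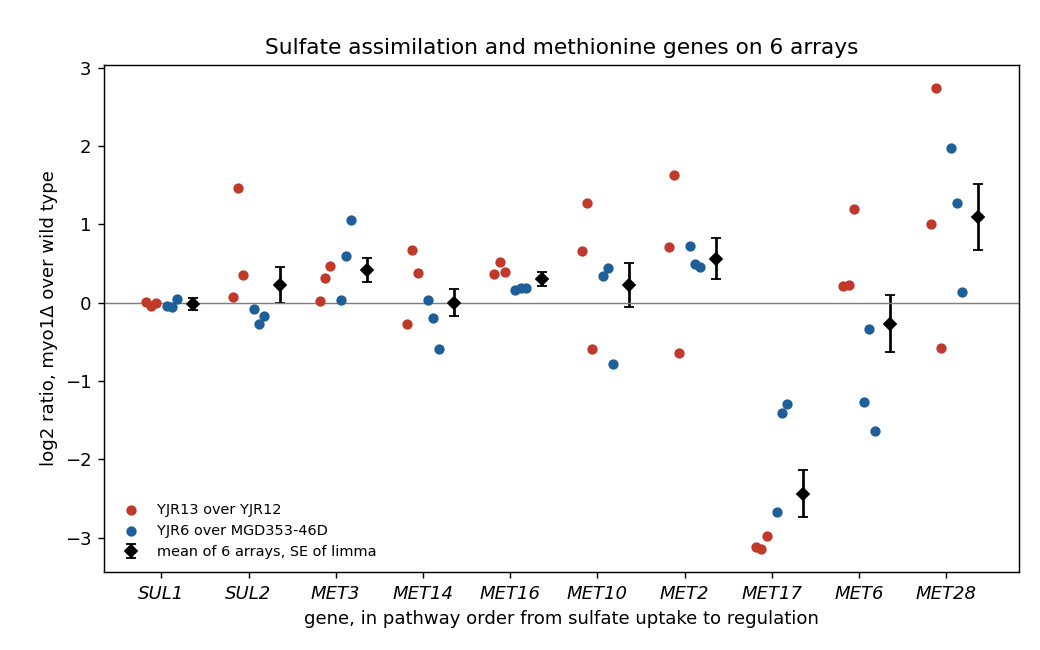
Log2 ratio of myo1Δ over wild type (vertical axis) for each of the 10 genes (horizontal axis) on each array, with YJR13 over YJR12 in red and YJR6 over MGD353-46D in blue. Black diamonds are means over 6 arrays with the standard error from limma. MET17 is below -1 on all 6 arrays, while the points of the other genes lie on both sides of 0 or above it.

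SUL1 and SUL2 encode the high-affinity sulfate permeases. The SUL1 ratios lay between -0.05 and 0.05 on the 6 arrays, but its probe gave almost no signal. Both SUL1 spots were marked empty by the image software on every array. The gene exceeded the negative control spots (a spot signal over local background over their 95th percentile) in 4 of 6 myo1Δ channels and 3 of 6 wild type channels. Its ratio near 0 (mean -0.01, SE 0.08, adjusted p = 0.920) is thus a comparison of signals at the limit of detection, and no fold is given for it. SUL2 was detected in every channel and had ratios of 0.07, 1.47 and 0.36 for YJR13 over YJR12, against -0.08, -0.27 and -0.17 for YJR6 over MGD353-46D. One array of the YJR13 pair stood well above the others, and the mean over 6 arrays was 0.23 (SE 0.23, adjusted p = 0.503).

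MET3 encodes ATP sulfurylase, the first step of sulfate activation. Its ratios were 0.03, 0.32 and 0.47 in the YJR13 pair, and the YJR6 pair had 0.04, 0.59 and 1.05. MET3 was thus above 0 on 6 of 6 arrays, but array 1 and array 4 were close to 0, and the mean of 0.42 (SE 0.15) had an adjusted p of 0.0825 in limma. Of all genes measured on every array, 14.2% were above 0 on all 6. MET14 encodes the kinase that follows Met3. Its ratios were -0.27, 0.67 and 0.38 in the YJR13 pair, and the YJR6 pair had 0.03, -0.19 and -0.59. The mean over 6 arrays was 0.00 (SE 0.17, adjusted p = 0.993). Both pairs held values on either side of 0. The 95% confidence interval of the MET3 mean was 0.059 to 0.77, and that of MET14 was -0.41 to 0.41.

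MET16 encodes PAPS reductase. Its ratios were 0.36, 0.52 and 0.39 for YJR13 over YJR12 and 0.17, 0.18 and 0.19 for YJR6 over MGD353-46D. The values were small, and all 6 were above 0 as means of 2 spots. The spots had opposite signs on array 5 (-0.11 and 0.48) and on array 6 (0.58 and -0.19). The mean was 0.30 (SE 0.09) and passed at an adjusted p of 0.0453 in limma. The call was a marginal one: it held in 7 of 18 alternative treatments of the data and in none of the 6 in which 1 array was left out, where the adjusted p was 0.0672 to 0.120. The probe was also dim. In the wild type channel of array 3 neither MET16 spot exceeded the negative controls, and in YJR12 3 of 6 spot values did, against 6 of 6 in YJR13.

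MET10 encodes a subunit of sulfite reductase. It had ratios of 0.67, 1.27 and -0.59 in the YJR13 pair, and the YJR6 pair had 0.34, 0.45 and -0.78. Each pair thus held 1 array with a clearly negative value, and the mean was 0.23 (SE 0.28, adjusted p = 0.587). MET2 encodes homoserine acetyltransferase, which supplies the carbon chain that Met17 uses. Its ratios were 0.71, 1.63 and -0.64 in the YJR13 pair, and the YJR6 pair had 0.72, 0.49 and 0.46. MET2 was above 0 on 5 of 6 arrays, with a mean of 0.56 (SE 0.26, adjusted p = 0.149). Array 3 was the exception, and without it the mean was 0.80 with an adjusted p of 0.0262. Without array 2 the mean was 0.35 (adjusted p = 0.318), and MET2 missed the threshold in 5 of the 6 fits with 1 array left out.

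MET17 encodes the O-acetylhomoserine sulfhydrylase, the enzyme that brings sulfide into an amino acid. Its gene lies on chromosome XII. The ratios were -3.12, -3.14 and -2.97 for YJR13 over YJR12, and -2.67, -1.41 and -1.29 for YJR6 over MGD353-46D. Every array was below 0, as for 13.9% of the genes measured on all arrays. The mean was -2.44 (SE 0.30, 95% confidence interval -3.15 to -1.72, adjusted p = 0.00415 in limma). By p-value it stood at position 118 of 6256 genes.

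The MET17 difference could be seen directly in the spots. In YJR13 the signal of the 2 spots was 1.04 to 1.26 times the local background, with a median of 1.14, and in YJR12 it was 1.92 to 5.16 times background, with a median of 2.50. In YJR6 it was 1.53 to 2.95 times background, with a median of 2.27, and in MGD353-46D it was 3.12 to 16.3 times background, with a median of 7.78. Signal was thus close to background in YJR13 and clearly above it in YJR6, YJR12 and MGD353-46D. All 6 spot values of YJR13 were still over the negative control limit of their own channel, which was 1.02 to 1.12. On every array both spots had more signal over background in the wild type than in the mutant channel.

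**Figure D2:**
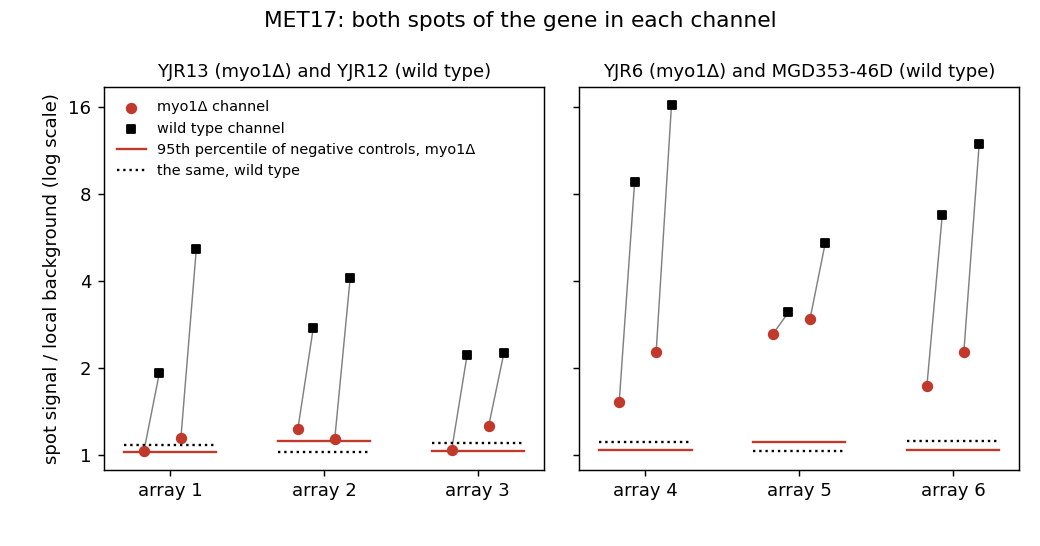
MET17 spot signal over local background (vertical log scale) on each array, with both spots of the gene shown, the myo1Δ channel (red circles) left of the wild type channel (black squares) and a line joining the channels of a spot. Horizontal lines are the negative control limits of the myo1Δ (red) and wild type (dotted) channel. YJR13 spots lie at 1.04 to 1.26, next to that limit, and YJR6 spots at 1.53 to 2.95.

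On the normalized log2 intensity scale MET17 averaged 6.04 ± 0.19 in YJR13 and 9.12 ± 0.27 in YJR12 (SD, n = 3 each). It averaged 7.77 ± 0.58 in YJR6 and 9.57 ± 0.19 in MGD353-46D (SD, n = 3 each). The means of the wild type strains thus lay closer together than those of the mutants, in a description that sets channels of different arrays side by side. Fitted by strain pair, MET17 fell by 3.08 in YJR13 over YJR12 (SE 0.28, adjusted p = 0.0211 in limma) and by 1.79 in YJR6 over MGD353-46D (SE 0.28, adjusted p = 0.0185 in limma). The standard errors are equal because the model took a single error variance per gene from both pairs, although the YJR6 ratios were further apart. Of all genes, 0.671% were lower at an adjusted p of 0.05 in the YJR13 pair, and the YJR6 pair had 8.2%. The pairs differed by -1.29 (SE 0.39, 95% confidence interval -2.24 to -0.33, unadjusted p = 0.0163 in limma), and this difference missed the threshold (adjusted p = 0.554 over all genes in limma). On the slide that holds an array of each pair (arrays 3 and 4), the values were -2.97 and -2.67. Every other slide holds arrays of a single pair. The difference with slide as a fixed block (-0.30) therefore rests on arrays 3 and 4 alone. It also moved with the treatment of the signals: it was -0.45 with no background correction, -2.56 with scaling between arrays, -3.09 with plain subtraction and -3.54 by normexp with an offset of 0, and of these 4 only the last passed (adjusted p = 0.0428 in limma). What part, if any, the met15delta0 allele of BY4741 has in the YJR13 pair was not tested.

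The size of the MET17 fall depended on the treatment of the background. The fall was 2.97-fold with no background correction and 13.9-fold by normexp with an offset of 0. It stayed past an adjusted p of 0.05 in all 19 alternatives, but its adjusted p was above 0.01 in 6 of them. The MET17 spots differed by 1.39, 0.97, 0.41, 0.45, 0.62 and 0.07 on the log2 scale on arrays 1 to 6. On arrays 1 to 5 this was more than the median difference of the 4007 genes with 2 spots, which was 0.197 on array 1 and 0.334 on array 6.

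MET6 encodes the methionine synthase that acts after Met17. Its ratios were 0.22, 0.23 and 1.20 for YJR13 over YJR12 and -1.27, -0.33 and -1.63 for YJR6 over MGD353-46D. The pairs lay on opposite sides of 0, and the share of all genes with such a split is not given here. The mean over 6 arrays was -0.26 (SE 0.37, adjusted p = 0.637). In the YJR13 pair the mean was 0.55 (SE 0.31, adjusted p = 0.364) and in the YJR6 pair it was -1.08 (SE 0.31, adjusted p = 0.0593). The difference of 1.63 between the pairs (SE 0.44, unadjusted p = 0.00945) had an adjusted p of 0.554 in limma. On arrays 3 and 4, which share a slide, MET6 was at 1.20 and -1.27. The MET6 levels on the log2 intensity scale were 9.11 ± 0.45 in YJR13 and 8.56 ± 0.56 in YJR12, and 8.54 ± 0.40 in YJR6 and 9.62 ± 0.61 in MGD353-46D (SD, n = 3 each). The highest mean was that of MGD353-46D.

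MET28 encodes a basic leucine zipper protein that stabilizes the binding of Met4 and Cbf1 to promoters. It had ratios of 1.00, 2.74 and -0.57 in the YJR13 pair, and the YJR6 pair had 1.98, 1.28 and 0.13. The mean of 1.09 (SE 0.42) was the highest of the 10 genes, but the arrays ranged over more than 3 log2 units and the adjusted p was 0.0938 in limma. MET28 was above 0 on 5 of 6 arrays. Without array 3 the mean was 1.43 and the adjusted p was 0.0304. Without array 2 the mean was 0.76 (adjusted p = 0.203), and MET28 missed the threshold in 5 of the 6 fits with 1 array left out.

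Array 3 was the exception for MET2 and MET28 and 1 of 2 exceptions for MET10. Over all genes it also stood apart, with correlations of 0.146 to 0.477 to the other arrays, which had correlations of 0.548 to 0.771 among themselves. What part this has in the values of the 3 genes was not tested. The median signal over background per channel was 1.54 to 2.15 in myo1Δ and 1.22 to 2.55 in wild type. The deleted gene itself, MYO1, had a mean of -2.17 (adjusted p = 0.00466 in limma), with values of -2.11, -1.45, -1.69, -3.53, -1.46 and -2.77. Its spot signal was 1.02 to 1.12 times background in the mutants and 1.40 to 4.78 times background in the wild type strains. The scan name inside the files of array 1 gives the dye order of array 2. The dyes of the labels were followed, and MYO1 was below 0 on array 1 under them.

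A further 32 genes of sulfur amino acid metabolism were examined beside the 10. At an adjusted p of 0.05 in limma 5 of these fell, 7 rose and 20 missed the threshold, where 12.9% of all genes were lower and 14.2% higher. At 0.01 the 1 gene called was MET7, which fell. Their median log2 ratio was -0.03 (SD 0.24 over 6 arrays), next to that of all genes.

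All 4 genes of the S-adenosylmethionine cycle, which uses methionine as a methyl donor, had means below 0, and 2 of the 4 passed as lower, where 12.9% of all genes did. SAH1 encodes the hydrolase that returns S-adenosylhomocysteine to homocysteine. Its ratios were -0.09, -2.66 and -1.33 in the YJR13 pair, and the YJR6 pair had -1.66, -2.31 and -0.81, all below 0 but unequal. It fell by 1.48 (SE 0.33, adjusted p = 0.0205). SAM2, an S-adenosylmethionine synthetase gene, fell by 1.02 (SE 0.29, adjusted p = 0.0389), with a value above 0 on array 1 (0.25). The other synthetase gene SAM1 had a mean of -0.59 (adjusted p = 0.182) and the adenosine kinase gene ADO1 one of -0.62 (adjusted p = 0.114). SAM1 and SAM2 are close homologs, and the sources used here do not say how well their probes tell them apart. CYS4 encodes cystathionine beta-synthase, which draws homocysteine toward cysteine. It fell by 0.90 (SE 0.19, adjusted p = 0.0173), with ratios of -0.44, -0.17 and -1.21 in the YJR13 pair, and the YJR6 pair had -1.57, -0.91 and -1.11. STR3 and STR2, which act on the way from cysteine to homocysteine, had means of 0.71 (adjusted p = 0.0607) and 0.54 (adjusted p = 0.0685).

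The folate and methyl supply and the homoserine branch were mixed. MET7 encodes folylpolyglutamate synthetase, which provides the folate form that Met6 needs. It had ratios of -0.86, -1.40 and -0.23 in the YJR13 pair, and the YJR6 pair had -1.39, -1.24 and -0.79. All 6 were below 0, and the fall of 0.98 (SE 0.17) had an adjusted p of 0.00954. MET13, a methylenetetrahydrofolate reductase gene, rose by 0.52 (SE 0.16, adjusted p = 0.0484), and the related gene MET12 had a mean of 0.01 (adjusted p = 0.975). HOM2, the aspartate semialdehyde dehydrogenase gene of homoserine synthesis, fell by 0.48 (SE 0.11, adjusted p = 0.0234), and was below 0 on 6 of 6 arrays. HOM6 and HOM3 had means of -0.45 (adjusted p = 0.117) and -0.16 (adjusted p = 0.729). MET22, whose phosphatase removes the nucleotide left over from PAPS reduction, had a mean of -0.47 (adjusted p = 0.127).

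Among the 3 genes of sulfite reductase and its siroheme cofactor, MET1 rose. MET1 encodes the methyltransferase of siroheme synthesis, and its ratios were 0.87, 0.53 and 0.06 in the YJR13 pair, and the YJR6 pair had 1.83, 0.84 and 0.54. The mean was 0.78 (SE 0.22, adjusted p = 0.0367). MET5, the partner of MET10, had a mean of 0.42 (adjusted p = 0.200) and MET8 one of -0.11 (adjusted p = 0.654).

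Of the 5 transporters of sulfur compounds, 3 rose, where 14.2% of all genes were higher, and a group of this size was not tested as such. SAM3, the S-adenosylmethionine permease gene, had ratios of 0.75, 1.44 and 0.77 in the YJR13 pair, and the YJR6 pair had 1.05, 2.16 and 0.39. Its mean was 1.09 (SE 0.23, adjusted p = 0.0162), with every array above 0. YCT1, a cysteine transporter gene, rose by 1.05 (SE 0.30, adjusted p = 0.0383) and the low-affinity methionine permease gene MUP3 by 0.80 (SE 0.21, adjusted p = 0.0301). The permease genes MMP1 and MUP1 had means of -0.56 (adjusted p = 0.111) and 0.13 (adjusted p = 0.826). Of the genes for other sulfur sources, MHT1, an S-methylmethionine homocysteine methyltransferase gene, rose by 0.48 (SE 0.12, adjusted p = 0.0271), while JLP1 had a mean of 0.22 (adjusted p = 0.308) and SAM4 one of -0.26 (adjusted p = 0.592).

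Of the 5 other regulator genes, MET30 rose. MET30, the F-box gene named above, had ratios of 1.34, 0.70 and -0.16 in the YJR13 pair, and the YJR6 pair had 1.68, 1.68 and 0.80. Array 3 was again the one below 0, and the mean was 1.01 (SE 0.25, adjusted p = 0.0278). The activator gene MET4 had a mean of 0.26 (adjusted p = 0.400) and CBF1 one of 0.19 (adjusted p = 0.434). The remaining regulators did not pass. Most of the calls among the 32 genes depended on single arrays. MET7 passed in every fit with 1 array left out. CYS4 missed the threshold without array 6 (adjusted p = 0.0523), SAM3 without array 2 (adjusted p = 0.0534), and SAH1 without array 2 or array 4 (adjusted p up to 0.0593). SAM2, MUP3, YCT1 and MHT1 missed it in 4 of the 6 fits and HOM2, MET1, MET13 and MET30 in 5 of 6. Leaving out array 2 left 0 higher and 2 lower genes, and leaving out array 4 or array 6 left 1 higher and 2 lower genes. Calls over all genes dropped as well, to 815, 942 and 937 without array 2, 4 and 6, against 1693 with all arrays.

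**Figure D3:**
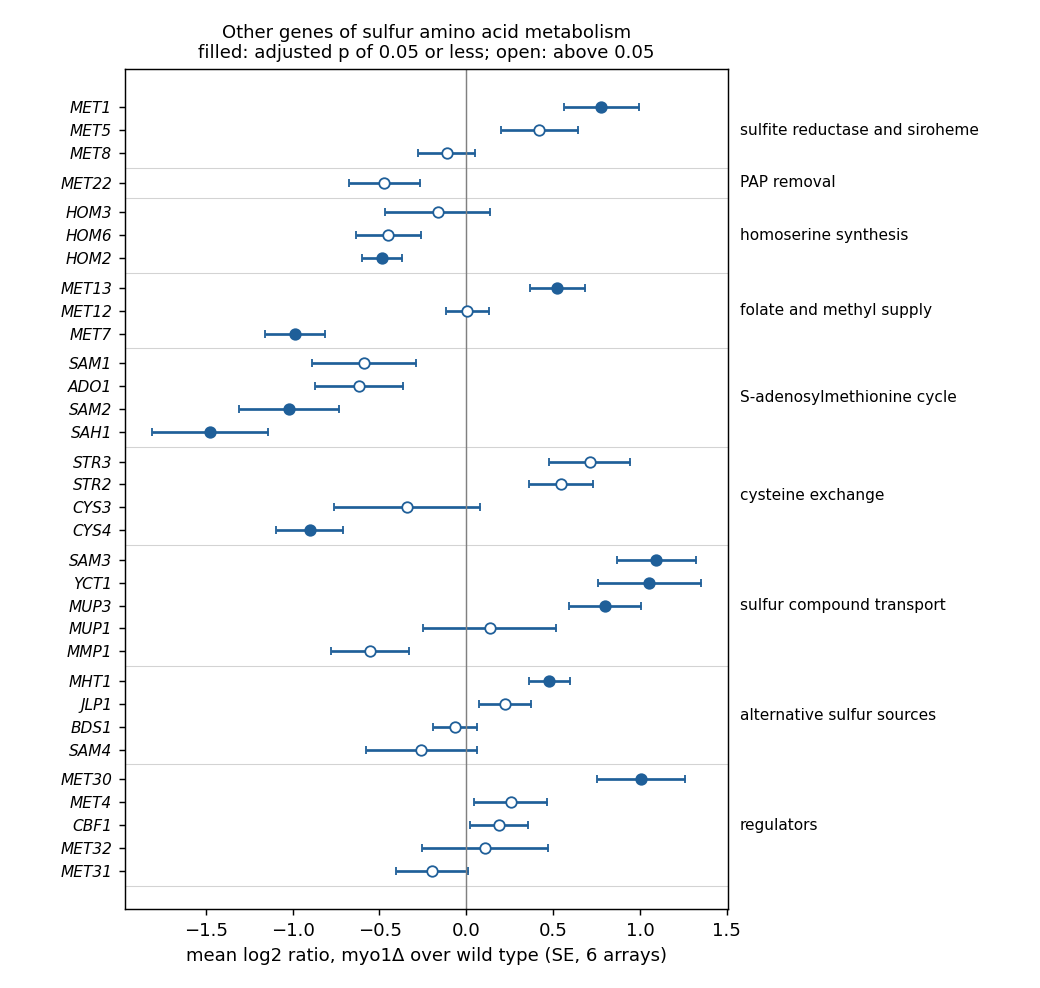
Mean log2 ratio of myo1Δ over wild type with its standard error (horizontal axis, 6 arrays) for the 32 other genes of sulfur amino acid metabolism, grouped by role. Filled points passed an adjusted p of 0.05 in limma, 5 below 0 and 7 above 0. The 4 genes of the S-adenosylmethionine cycle are all left of 0, and SAM3, YCT1 and MUP3 are right of it.

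Each strain pair also had its own mean in 1 model over all arrays, with a single error variance per gene shared by both pairs. The p-value of a pair thus draws on the spread in both pairs and is not a test on its 3 arrays alone. In each pair MET17 was the 1 gene of the 10 that passed an adjusted p of 0.05 in limma. The median of the 10 genes was 0.44 for YJR13 over YJR12 and -0.01 for YJR6 over MGD353-46D. In the YJR13 pair 0 of the 32 other genes passed, where 0.671% of all genes were lower and 0.576% higher. At an unadjusted p of 0.05 this pair had 3 lower and 4 higher genes of the 32. The share of all genes at that p is not given for a single pair. In the YJR6 pair 7 were lower (MET22, HOM2, HOM6, MET7, SAM1, SAM2 and CYS4) and 3 were higher (MET1, MHT1 and MET30), where 8.2% of all genes were lower and 9.94% higher. In the difference between the pairs, 0 of the 10 genes and 0 of the 32 genes passed an adjusted p of 0.05 in limma, against 0.0639% of all genes. At an unadjusted p of 0.05 the difference was past the threshold for 2 of the 10 genes, MET17 and MET6, and for 7.56% of all genes. It was also past it for 5 of the 32 genes, all with the higher ratio in the YJR13 pair.

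**Figure D4:**
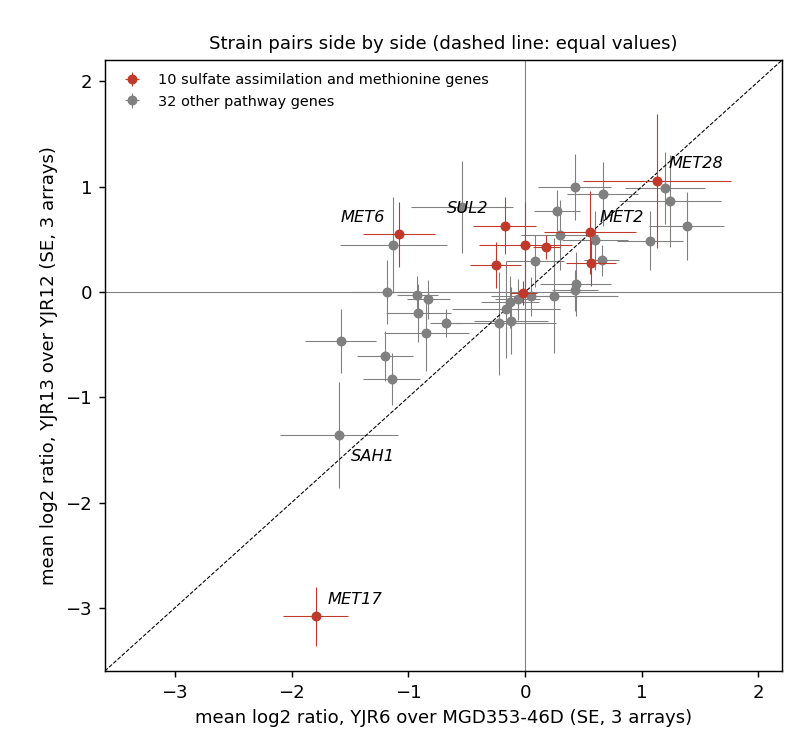
Mean log2 ratio of YJR13 over YJR12 (vertical axis) against that of YJR6 over MGD353-46D (horizontal axis), each the mean of 3 arrays, for the 10 genes (red) and the 32 other pathway genes (gray). Bars are standard errors from an error variance per gene that both pairs share. MET17 lies far below 0 in both pairs (-3.08 and -1.79), and MET6 is at 0.55 on the vertical and -1.08 on the horizontal axis.

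The median of the 10 genes on each array was 0.14, 0.60, 0.18, 0.04, 0.07 and -0.06. Of 6127 genes outside the lists with a value on all 6 arrays, those nearest to this profile by root mean square difference were MRPS18 (0.0710), BIO2 (0.0892), CDC23 (0.100), CDC15 (0.105) and CSS3 (0.105). The likeness is to this median alone and not to any single gene of the 10.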

How the data were processed

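Per the file headers the spots were quantified with ImaGene 6.0.0. The deposited files give, in scanner units, a mean intensity per spot and a median intensity of the local background. The authors' deposited log2 ratios (Cy5 over Cy3) were recomputed here to within 5e-08 and served as an alternative. Here limma 3.58.1 in R 4.3.3 was used: normexp background correction (offset 50), loess within arrays, poor spots (32 to 192 per array) left out, empty spots (1209 to 2079) kept, and ratios turned to myo1Δ over wild type by the dyes in the labels (mutant in Cy3 on arrays 2 and 5). Spots of a gene were averaged. Arrays were assigned to slides by the scan names in the headers. The mean of 6 arrays was tested against 0 with lmFit and eBayes, and a second model had a coefficient for each strain pair. Benjamini-Hochberg adjustment ran over 6256 genes (6255 for the pairs), with thresholds of 0.01 and 0.05. The fits were tested on simulated data. Channel levels came from loess with Aquantile scaling. Symbols of 5756 genes came from the reference table, and 500 kept the names of the array files.

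Cultures were labeled as biological triplicates. The number of arrays limits the precision. The 10 genes, the 32 others and the tests were chosen with earlier results of these data known. Named were all 10 genes, those of the 32 past an adjusted p of 0.05 and otherwise at most 2 per role with the smallest p, MYO1, and the 5 nearest profiles. Alternatives covered background, normalization, flags, intensity, dye, slide, spots, the deposited ratios and each array left out. Sequences and coordinates were not used here.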

Additional observations from a re-analysis of the deposited data

Results flagged for a closer look

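SUL2 stood apart on array 2, where its log2 ratio of 1.47 left a gap of 0.640 of the whole range to the next array, over Dixon's critical value for 6 arrays. Of 42 genes tested this way, 1 had such an array, and chance gives about 1 in 20 groups. SUL2 was also above 0 on all 3 arrays of YJR13 over YJR12 and below 0 on all 3 arrays of YJR6 over MGD353-46D. The difference of 0.80 (SE 0.38) had an adjusted p of 0.711 in limma. MET6 showed the same split, above 0 on all 3 arrays of the YJR13 pair and below 0 on all 3 of the YJR6 pair. Its difference was 1.63 (SE 0.44), with an adjusted p of 0.554 in limma. How common such a split is among all genes is not given here.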

How the results depend on the processing

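At an adjusted p of 0.05 the 1 lower gene of the 10 was MET17 under every alternative run. At 0.01 this count of 1 was 0 after scaling between arrays and 0 with dye as a term of the model. It ranged from 0 to 1 when 1 array was left out (0 without array 1, 2, 4 or 6). The 1 higher gene of the 10 became 0 with no background correction, with every flagged spot left out, with a dye effect and with every spot tested on its own, 2 with median normalization, and 3 with plain subtraction or a normexp offset of 0. It ranged from 0 to 2 over the arrays left out (2 without array 3). The median of the 10 genes was -0.019 with only genes above the median intensity, where fewer genes entered. It ranged from 0.0045 (without array 2) to 0.30 (without array 6) over the arrays left out. Between the strain pairs, 1 of the 10 genes (MET17, -3.54, adjusted p = 0.0428 in limma) passed with a normexp offset of 0, against 0 otherwise. Of the other pathway genes, the 5 lower became 2 with every spot tested on its own and ranged from 2 to 6 over the arrays left out. The 7 higher became 4 with no background correction, 4 with only genes above the median intensity, 4 with a dye effect and 2 with every spot on its own, and ranged from 0 to 6 over the arrays left out (0 without array 2, 1 without array 4 or 6, 3 without array 1). The cause of these changes was not tested. No called value changed its sign. Signal over background limits SUL1, MET16 in YJR12 and MET17 in YJR13, all close to the negative controls. Each array already pairs a mutant with a wild type sample, so every ratio is a paired one. No further pairing by array was made between the strain pairs, which share no array number. Slide as a block is a separate fit.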
